A study of Mus musculus with 13 samples.

Results

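The libraries described here are the 3 taken at 0 h, of 13 in the series. They were chosen by their time label alone, and no measured value entered the choice. RNA of oocytes from ovaries of P5 female CD-1 mice was sequenced, and all 3 libraries come from ovaries that were cultured overnight after they were taken from the mice. Replicates 1 and 2 belong to the series of 0.5 Gy, where the labels call them the first and the second generation, and replicate 3, called the third, belongs to the series of 0.2 Gy. The labels attach the dose of the series to these libraries and count 0 h from irradiation, as do the methods of the study. Its results section instead describes 0 h as taken before irradiation, so by that section none of the 3 was irradiated. Whether the generations were handled as batches is not given in the labels or the methods. No mutant allele or transgene is named for these mice. Oocytes were freed with trypsin and separated from follicular cells by repeated low-speed centrifugation, with no sort for a marker, so other ovarian cells could remain. The SD of 3 libraries given below measures the spread between these preparations, each made from more than 1 ovary.

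Most oocytes of a mouse ovary at this age rest in primordial follicles, arrested in the dictyate stage of the first meiotic prophase and enclosed by flat pregranulosa cells. They store mRNA for growth and for the early embryo, and once a follicle is activated the oocyte grows, lays down the zona pellucida and secretes growth factors to the granulosa cells around it. Resting oocytes hold the p53 relative p63 in a TA form that stays inactive until DNA breaks are sensed through ATM and CHK2, and that then drives apoptosis through PUMA and NOXA.

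The estimated reads summed to 26081298, 15709549 and 30430104 in replicates 1, 2 and 3, and values in series of 3 below follow this order. Levels are given as TPM (transcripts in a fixed total, a level per transcript length), summed over the transcripts of a gene, and a gene was counted as detected at 1 TPM or more. Of 21885 protein-coding genes, 10867, 11630 and 11560 were detected in the 3 libraries, and 10267 in every one of them, which is 46.9% of those measured. A further 9435 reached 1 TPM in none. The share of 46.9% is the one to set beside each count of protein-coding list members detected in every library below. At 10 TPM or more in every library were 3475 protein-coding genes, or 15.9%. Of 49585 genes of all kinds, 29833, 26955 and 36085 had more than 3 estimated reads, where 3 is about the highest expected count that an observed 0 allows by counting error and is used here as a floor. Replicate 3 had the most such genes also after all estimates were rounded to whole reads and replicates 1 and 3 were thinned to the depth of replicate 2, with 25663, 25855 and 30235. Each comparison of libraries below is within 1 condition, so the values are a description and no test between groups was made.

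All 16 oocyte markers were detected in every library, at a median of 49.8 TPM against 1.26 TPM for all protein-coding genes. Ddx4, the germ cell RNA helicase VASA at chr13:112598333-112652475 (GRCm38), was at 8.38, 17.1 and 9.57 TPM. Zp2, a zona pellucida glycoprotein gene at chr7:120126772-120145291, was at 536, 1056 and 661 TPM. Nobox, a homeobox factor of early oocytes, was at 65.0, 111 and 108 TPM, and Kit, the receptor for the growth factor of pregranulosa cells, was at 21.2, 38.6 and 41.9 TPM. All 4 were thus well above the detection limit, with Zp2 by far the highest and Ddx4 the lowest. Dppa3, a maternal factor that guards DNA methylation, was the highest of the list at 1518, 1348 and 1271 TPM. Sycp3 of the synaptonemal complex was at 267, 335 and 218 TPM, although 46.7% of its 30-mers also occur in other genes, chiefly Chpt1. The factor Figla, which drives the zona genes, was at 185, 142 and 166 TPM. The growth factor genes Gdf9 and Bmp15 were at 154, 102 and 96.8 TPM and 12.3, 10.1 and 5.04 TPM, in both cases highest in replicate 1. Sohlh1 and Lhx8, which act with Nobox in primordial oocytes, were at 20.1, 31.3 and 43.1 TPM and 10.01, 23.7 and 10.6 TPM. The RNA-binding proteins Dazl and Ybx2 were at 15.1, 31.6 and 17.1 TPM and 16.9, 17.5 and 19.4 TPM. The remaining members are the zona and secreted genes given below. By these markers the libraries hold oocyte RNA, as labelled.

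Markers of other ovarian cells were present beside them. The 16 granulosa markers were detected in every library too, with a median of 10.9 TPM, and their TPM summed to 989, 1046 and 1534 against 3140.3, 3527 and 2968 for the 16 oocyte markers. In each library most of the oocyte sum came from Dppa3 and Zp2, and most of the granulosa sum from Amhr2, Inha and Gja1. These highest granulosa markers were Amhr2, the receptor for anti-Müllerian hormone, at 323, 326 and 463 TPM, the inhibin subunit Inha at 361, 222 and 429.9 TPM and the gap junction protein Gja1 at 177, 309 and 509 TPM. Wt1, a factor of pregranulosa cells, was at 36.5, 30.4 and 20.1 TPM. Amhr2 and Gja1 owe much of their TPM to transcripts shorter than 300 nt, which take on very high TPM from few reads. In transcripts of 300 nt or more they held 74.1, 81.4 and 87.1 TPM and 93.8, 133 and 92.7 TPM, and the summed granulosa level became 648, 601 and 741 TPM while that of the oocyte list did not change. Foxl2, the factor that holds granulosa identity, was at 10.6, 8.13 and 6.60 TPM, whereas Amh, made by granulosa cells of growing follicles, was at 1.55, 1.01 and 1.53 TPM. In such bulk samples, fewer cells of a type and less RNA per cell cannot be told apart.

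Of 14 stroma and theca markers, 12 were detected in every library. The extracellular matrix genes Dcn and Col3a1 were at 108, 152 and 209 TPM and 65.9, 120.4 and 129 TPM, Mfap4 at 57.3, 67.1 and 154 TPM and the steroidogenic enzyme Hsd3b1 at 99.95, 111 and 49.6 TPM. The beta globin gene Hbb-bs was at 1941, 2635 and 1837 TPM, among the highest protein-coding genes, and the alpha globin genes Hba-a1 and Hba-a2, which share most of their sequence, were at 1193, 812 and 323 TPM and 688, 973 and 1094 TPM. Hbb-bt, which holds 54.5% of the 30-mers of Hbb-bs, was at 119.8, 226 and 50.6 TPM, so the split of these 2 is uncertain as well. Endothelial genes were lower, with Emcn at 3.20, 5.69 and 4.19, Pecam1 at 3.93, 5.13 and 3.53, Cldn5 at 2.69, 3.39 and 3.56 and Cdh5 at 1.74, 3.30 and 2.81 TPM, and Tie1 under 1 TPM at 0.198, 0.436 and 0.568. Of 9 macrophage markers, Lyz2 was the highest at 8.76, 18.5 and 4.67 TPM, followed by C1qb at 2.20, 2.89 and 1.81, Cd68 at 3.03, 0.293 and 0.810 and Cx3cr1 at 0.205, 1.27 and 1.01 TPM. The pan-leukocyte gene Ptprc at 0.617, 0.758 and 0.612 TPM, Csf1r at 0.367, 0.906 and 0.703 TPM and C1qc at 0.449, 0.828 and 0.318 TPM stayed under 1 TPM in every library. Of the ovarian surface genes, Lhx9 led at 1.90, 4.12 and 2.06 TPM, with Krt19 at 0.788, 1.20 and 2.36 and Lgr5 at 0.489, 1.27 and 0.672 TPM. Upk3b, Krt7 and Upk1b were under 1 TPM in every library, the highest of these values being 0.676 TPM for Krt7 in replicate 3.

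Genes of cells that an ovary lacks were mostly under 1 TPM, with the exceptions named here. The 6 spermatid markers Prm1, Prm2, Tnp1, Tnp2, Odf1 and Acrv1 were all under 1 TPM, and the highest single value was 0.423 TPM for Prm1 in replicate 2. Of the neuron list, Syt1 was at 1.09, 2.07 and 2.39 TPM and Rbfox3 at 0.410, 1.03 and 0.532 TPM, while Snap25, Slc17a7, Gad1 and Syn1 stayed under 1 TPM. Of 6 hepatocyte genes, the apolipoprotein gene Apoa1 was at 18.1, 12.5 and 18.7 TPM and Serpina1a at 3.04, 10.2 and 0.692 TPM, with Alb, Afp, Ttr and Fga under 1 TPM. The Y-linked genes Uty, Eif2s3y and Ddx3y were under 1 TPM in every library, at 0.189, 0.336 and 0.567, 0.206, 0.244 and 0.525 and 0.0239, 0.0984 and 0.0965 TPM. Kdm5d, also annotated on the Y chromosome at chrY:897788-956786, was at 4.56, 3.29 and 3.37 TPM with 3753, 1198 and 2846 estimated reads. It was 1 of 3 among 151 protein-coding genes of the Y chromosome that reached 1 TPM in every library of these females. The other two, named after their values were seen, were Gm47283 at 47.2, 29.7 and 30.3 TPM and Gm21244 at 23.5, 16.02 and 16.9 TPM. What these reads derive from was not tested.

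**Figure D1:**
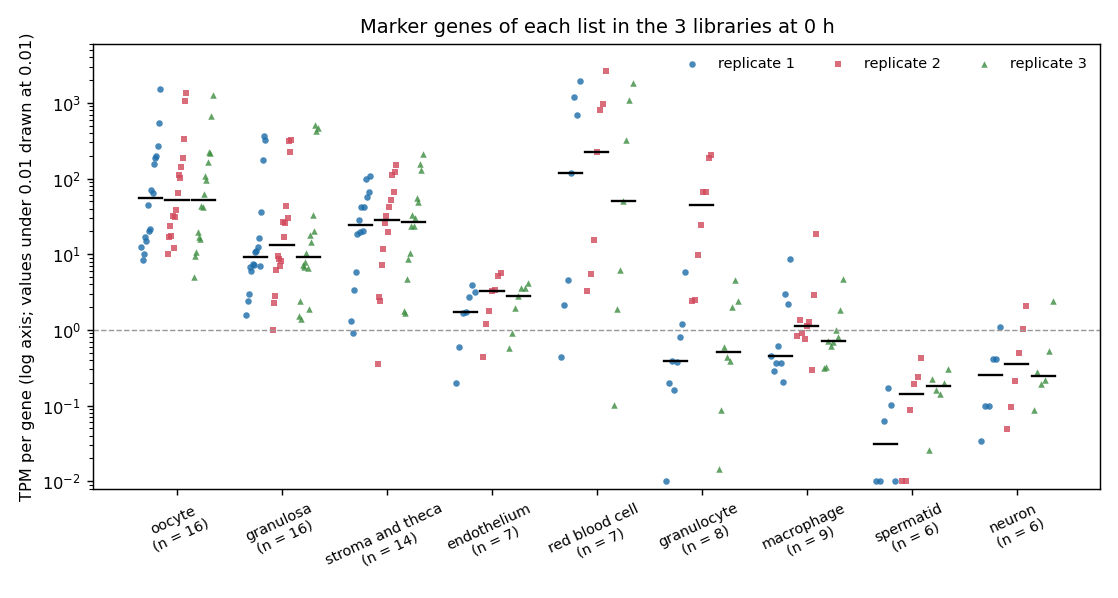
TPM of each marker gene (log axis) for 9 lists, with replicates 1, 2 and 3 as circles, squares and triangles, the median of each list and library as a black bar and 1 TPM as a dashed line. The oocyte, granulosa, stroma and red blood cell lists lie mostly above 1 TPM in all 3 libraries, the spermatid list lies below it, and the granulocyte list lies above it in replicate 2, where its TPM summed to 558.

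Of 13 genes of the zona pellucida and of secreted oocyte products, 11 were detected in every library, and 10 had their highest value in replicate 1. Over protein-coding genes with a mean of 1 TPM or more, replicate 1 was the highest for 16.4%, replicate 2 for 53.0% and replicate 3 for 30.6%. On CPM normalized with TMM, which sets the bulk of genes level, it was the highest for 12 of the 13 and for 40.6% of all. Zp3, the zona glycoprotein that serves in sperm binding, was at 197, 187 and 223 TPM, and Zp1, which links zona filaments, was at 70.0, 64.4 and 62.4 TPM. These 2 differed little between libraries on TPM, with means of 202 ± 18.6 TPM (SD, n = 3) and 65.6 ± 3.99 TPM (SD, n = 3). In contrast, Zp2 at 751 ± 272 TPM (SD, n = 3) was the 1 member with its lowest TPM in replicate 1, though not on CPM with TMM. The oocyte-secreted protein genes Oosp1, Oosp3 and Oosp2 were at 44.9, 12.2 and 15.9 TPM, 15.7, 2.25 and 2.44 TPM and 7.22, 7.90 and 3.93 TPM. Oosp1 and Oosp3 were thus 3.17-fold and 6.44-fold higher in replicate 1 than the mean of the other 2, on TPM plus 0.1. Omt2a and Omt2b, a pair of oocyte-maturation genes that share part of their sequence, were also highest in replicate 1, at 70.6, 18.7 and 19.4 TPM and 109, 54.8 and 45.2 TPM, though Omt2b held only 16.5, 7.10 and 6.43 TPM in transcripts of 300 nt or more. Astl, the protease ovastacin that cleaves ZP2 after fertilization, was at 22.7, 19.5 and 17.1 TPM. Fgf8 and Bmp6 were near or under 1 TPM, at 1.43, 0.834 and 0.347 and 1.19, 0.963 and 0.288 TPM. Replicate 1 lay apart from replicates 2 and 3 in Oosp1, Oosp3, Omt2a and Omt2b, while in Zp1, Astl and Zp3 the 3 libraries lay close together on TPM. This closeness is tied to the TPM scale, since on CPM with TMM replicate 1 was the highest for 12 of the 13.

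**Figure D2:**
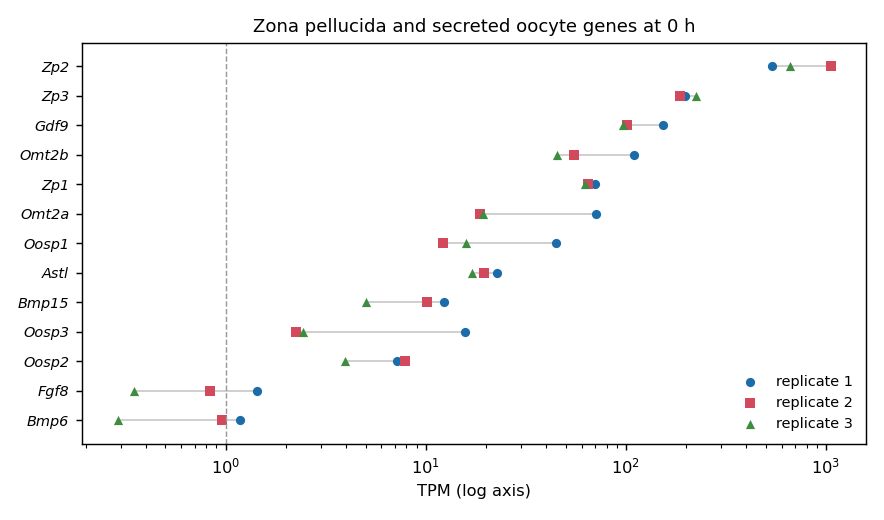
TPM (log axis) of the 13 zona pellucida and secreted oocyte genes in replicates 1, 2 and 3 (circles, squares and triangles), ordered by mean, with a grey line over the range and a dashed line at 1 TPM. Replicate 1 is the highest for 10 of the 13, and Oosp3 spans the widest range of those above 1 TPM, from 2.25 to 15.7.

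FIGLA acts through the E-box CANNTG in the promoters of the zona genes, and the Zp3 promoter is shown because its gene was steady across the libraries on TPM. In the RefSeq sequence of GRCm38.p6, 250 bases before the transcript start on the plus strand at chr5:135979855-135980104 read as follows, with each CANNTG in capitals (the motif reads the same on both strands):
Zp3: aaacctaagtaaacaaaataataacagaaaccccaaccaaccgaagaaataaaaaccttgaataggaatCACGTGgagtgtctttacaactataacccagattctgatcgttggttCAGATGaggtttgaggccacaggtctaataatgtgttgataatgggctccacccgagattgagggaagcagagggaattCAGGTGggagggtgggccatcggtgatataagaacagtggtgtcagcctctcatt
The window holds 3 matches, beginning 181, 134 and 55 bases before the start. Of 32851 promoters of this length in the table, 66.2% hold at least 1 and 12.2% hold at least 3. Of the 16 oocyte markers 12 matched a promoter there, and 10 of the 12 hold at least 1. A match is a string of letters and not a site of binding.

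Transcription factors of the oocyte spanned a wide range, with 13 of 18 detected in every library. After Figla and Nobox came Tcl1, an AKT cofactor of oocytes and early embryos, at 55.2, 49.0 and 61.1 TPM. Gata4, a factor of granulosa cells, was at 17.2, 13.7 and 10.5 TPM and Tbpl2, the oocyte form of the TATA-binding protein, at 11.6, 15.0 and 11.5 TPM. Pou5f1 was at 10.4, 11.7 and 13.8 TPM, Sohlh2 at 2.86, 6.44 and 9.78 TPM and Foxo3, which keeps primordial follicles dormant, at 4.39, 6.38 and 8.28 TPM. Nobox, Sohlh1, Sohlh2, Lhx8, Pou5f1 and Foxo3 had their lowest TPM in replicate 1, as had 58.1% of protein-coding genes with a mean of 1 TPM or more. On CPM with TMM, where 27.3% of these genes were lowest in replicate 1, so were Nobox, Sohlh1, Sohlh2 and Foxo3 but not Lhx8 and Pou5f1. The oocyte homeobox genes Obox5 at 11.5, 3.38 and 2.05 TPM and Obox1 at 6.33, 1.80 and 2.20 TPM had their highest value in replicate 1 on both scales. Taf4b, a TFIID subunit of early oocytes, was at 0.856, 1.16 and 0.829 TPM. Obox3, Obox6 and Spdef stayed under 1 TPM in every library, with 0.241 TPM for Spdef in replicate 2 as their highest value.

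Of 13 genes of the subcortical maternal complex and its relatives, 12 were detected in every library. Padi6, needed for the cytoplasmic lattices, was at 639.9, 1409.5 and 1479 TPM, of which transcripts of 300 nt or more held 161, 332 and 286 TPM. Tle6 was at 187, 157 and 175 TPM, Nlrp14 at 145, 181 and 139.8 TPM and Ooep at 67.0, 64.2 and 46.6 TPM. Nlrp5, the maternal antigen MATER, was at 62.7, 91.4 and 218 TPM, so replicate 3 held 2.83 times the mean of the other 2. Nlrp4f was at 93.4, 166 and 107 TPM. In contrast, Nlrp9c was at 2.97, 0.820 and 0.433 TPM, highest in replicate 1.

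Among genes of mRNA storage and translational control, 16 of 17 were detected in every library. The deadenylase subunit Cnot7 led at 48.2, 121 and 105 TPM. Cpeb1, which binds the cytoplasmic polyadenylation element, was at 11.3, 60.8 and 52.4 TPM, so replicate 1 held the lowest level by far. Btg4, a deadenylase adaptor of maternal mRNA decay, was at 36.0, 41.5 and 38.4 TPM, and the P-body gene Ddx6 at 6.62, 8.11 and 7.93 TPM. Eif4enif1, the eIF4E transporter of dormant mRNA, was at 30.3, 40.0 and 41.8 TPM. Zar1l at 2.79, 0.166 and 1.28 TPM and Eif4e1b at 5.77, 1.71 and 1.20 TPM had their highest values in replicate 1.

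Of 16 genes of the piRNA pathway, which silences transposons in the germ line, 13 were detected in every library. Gtsf1, a cofactor of PIWI proteins, was the highest at 267, 176 and 254 TPM. Mael was at 43.3, 66.4 and 55.0 TPM, Tdrd5 at 113, 84.3 and 86.3 TPM and Mov10l1 at 21.9, 73.3 and 76.9 TPM, the last 2 with only 8.11, 8.65 and 6.65 and 7.66, 22.8 and 20.9 TPM in transcripts of 300 nt or more. Of the PIWI proteins, Piwil2 was at 2.99, 7.27 and 6.86 TPM, whereas Piwil4 at 0.421, 0.611 and 0.363 TPM and Piwil1 at 0.358, 0.163 and 0.202 TPM stayed under 1 TPM in every library.

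Of 22 genes of the meiotic chromosome axis, recombination and entry, 14 were detected in every library, with Sycp3 the highest. The cohesin subunit Smc1b was at 21.2, 23.9 and 15.8 TPM, and the central element genes Syce2 and Syce1 at 44.6, 61.7 and 43.6 TPM and 27.9, 40.2 and 65.4 TPM. Stra8 and Meioc, which act at meiotic entry, were under 1 TPM in every library, at 0.443, 0.239 and 0.169 and 0.187, 0.110 and 0.105 TPM. So were Spo11, which makes the breaks of recombination, at 0.125, 0.0395 and 0.519 TPM and the cohesin genes Rad21l and Rec8 at 0.322, 0.718 and 0.382 and 0.532, 0.888 and 0.107 TPM. Of 19 genes that hold or release meiotic arrest, Cdk1 was the highest at 145, 167 and 149 TPM, with Gnas at 76.9, 67.7 and 55.7, Ccnb1 at 32.4, 55.8 and 40.8 and Ccnb2 at 15.6, 21.2 and 23.7 TPM. The kinase gene Mos was at 13.5, 5.25 and 6.01 TPM. The receptor Gpr3 at 0.280, 0.654 and 0.913 TPM and the phosphodiesterase Pde3a at 0.739, 0.807 and 0.734 TPM, which set cAMP in arrested oocytes of later stages, were under 1 TPM, as were Ccnb3 at 0.115, 0.0402 and 0.266 and Gpr12 at 0, 0 and 0.303 TPM.

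Genes of the PI3K and mTOR pathway that sets follicle dormancy were mostly moderate, with 14 of 16 detected in every library. Tsc2 was the highest at 265, 169.7 and 137 TPM, and at 122, 81.8 and 44.2 TPM in transcripts of 300 nt or more. Rps6 was at 105, 139.8 and 117 TPM and Pdpk1 at 10.9, 16.6 and 14.3 TPM. Cdkn1b, the cell cycle inhibitor p27, was at 8.18, 14.4 and 12.7 TPM. Pik3cb alone of this list was under 1 TPM in every library, at 0.264, 0.391 and 0.572 TPM. Of genes of contact between oocyte and granulosa cells, Gja4, the gap junction protein of the oocyte, was at 37.8, 22.3 and 26.01 TPM. Kitl, the ligand of Kit, was at 6.90, 44.0 and 33.1 TPM, and Gja5 stayed under 1 TPM at 0.209, 0.243 and 0.385.

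Of 12 genes of DNA methylation, 11 were detected in every library. After Dppa3, the imprint keeper Zfp57 was at 112, 162 and 131 TPM and its partner Trim28 at 103, 67.0 and 65.6 TPM. Dnmt1, which maintains methylation, was at 39.8, 41.0 and 32.3 TPM. Dnmt3a, the enzyme that writes methylation in growing oocytes, was at 15.2, 30.1 and 24.1 TPM, whereas its cofactor Dnmt3l was under 1 TPM in every library, at 0.692, 0.231 and 0.311 TPM. Of 16 DNA repair genes, 14 were detected in every library and none stayed under 1 TPM in all 3. The Ku subunits Xrcc6 and Xrcc5 were at 30.5, 45.7 and 67.1 TPM and 14.9, 17.3 and 17.6 TPM. Of 12 imprinted genes, 11 were detected in every library, led by Peg3 at 11.9, 38.8 and 23.2, Plagl1 at 14.7, 31.7 and 16.7, Mest at 7.91, 25.4 and 19.7 and Grb10 at 8.15, 18.3 and 23.4 TPM.

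Of 16 checkpoint genes, 15 were detected in every library at 0 h, against 46.9% of all protein-coding genes. Trp63 itself, at chr16:25683763-25892102 on the plus strand, was at 3.43, 7.99 and 5.88 TPM with 1254, 1556 and 2533 estimated reads. Trp53 was higher, at 33.7, 26.4 and 32.9 TPM, and Trp73 was at 0.102, 0.0224 and 0.212 TPM. The kinases that pass the signal on were present. Atm was at 11.1, 22.3 and 17.0 TPM, Chek2 at 8.94, 16.2 and 16.4 TPM, Atr at 7.09, 8.83 and 5.04 TPM and Chek1 at 31.3, 40.0 and 32.4 TPM. The casein kinases Csnk1a1, Csnk1d and Csnk1e, members of the family that phosphorylates p63 after CHK2, were at 19.4, 51.1 and 26.3 TPM, 27.3, 44.9 and 41.1 TPM and 17.0, 15.7 and 24.8 TPM. In transcripts of 300 nt or more, Atm was at 5.19, 6.79 and 4.90 TPM and Csnk1d at 12.98, 25.9 and 21.7 TPM, and the other 14 checkpoint genes were as over all transcripts. Abl1, a tyrosine kinase downstream of ATM, was lower at 2.51, 2.83 and 3.80 TPM. Parp1 was the highest of the list in the mean, at 48.3, 37.9 and 43.8 TPM, and the histone variant gene H2afx was at 3.51, 11.9 and 5.69 TPM. Mdm4, an inhibitor of p53, was at 19.5, 45.7 and 24.9 TPM and the ubiquitin ligase Mdm2 at 5.98, 10.9 and 9.07 TPM. Cdkn1a, the p21 gene and a classical p53 target, was at 1.74, 2.31 and 3.12 TPM.

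Of 18 apoptosis genes, 15 were detected in every library, against 46.9% of all protein-coding genes. The BH3-only genes Bbc3 (PUMA) and Pmaip1 (NOXA) were the 2 that stayed under 1 TPM in all 3, at 0.330, 0.349 and 0.180 TPM and 0.0787, 0.282 and 0.222 TPM. Their estimated reads were 34, 12 and 18 and 22, 36 and 66. For comparison, 1135 olfactory receptor genes, known from olfactory neurons, had a 90th percentile of 0.105, 0.133 and 0.155 TPM, so Pmaip1 lay below it in replicate 1 and Trp73 in replicates 1 and 2, while Bbc3 lay above it in all 3. The 95th percentile of these receptor genes was 0.161, 0.208 and 0.248 TPM. Bbc3, Pmaip1 and Trp73 all lay below this in replicate 3, and Bbc3 lay above it in replicates 1 and 2. Bax, the effector of the mitochondrial pathway, was the highest at 144, 159.9 and 216 TPM, but only 26.05, 23.3 and 33.3 TPM of this lay in transcripts of 300 nt or more. Bak1, its partner, was at 0.705, 0.685 and 1.14 TPM. Bcl2l10, an anti-apoptotic member known from oocytes, was at 36.4, 12.8 and 13.8 TPM and highest in replicate 1, whereas Bcl2l1 was at 9.24, 19.4 and 10.2 TPM, Mcl1 at 4.89, 6.79 and 5.48 TPM and Bcl2 at 2.02, 1.73 and 1.299 TPM. Of the other BH3-only genes, Bad was at 15.2, 12.98 and 22.3 TPM, Bid at 1.84, 3.88 and 3.87 TPM and Bcl2l11 (BIM) at 1.06, 2.08 and 1.34 TPM, with Bok, a further effector, at 11.8, 15.4 and 11.3 TPM. Among the caspases, the initiators Casp2 and Casp9 were at 9.08, 19.8 and 20.02 TPM and 4.07, 6.19 and 5.91 TPM. Apaf1, the scaffold of the apoptosome, was at 2.52, 2.00 and 2.26 TPM and the caspase inhibitor Xiap at 3.32, 5.29 and 4.75 TPM.

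**Figure D3:**
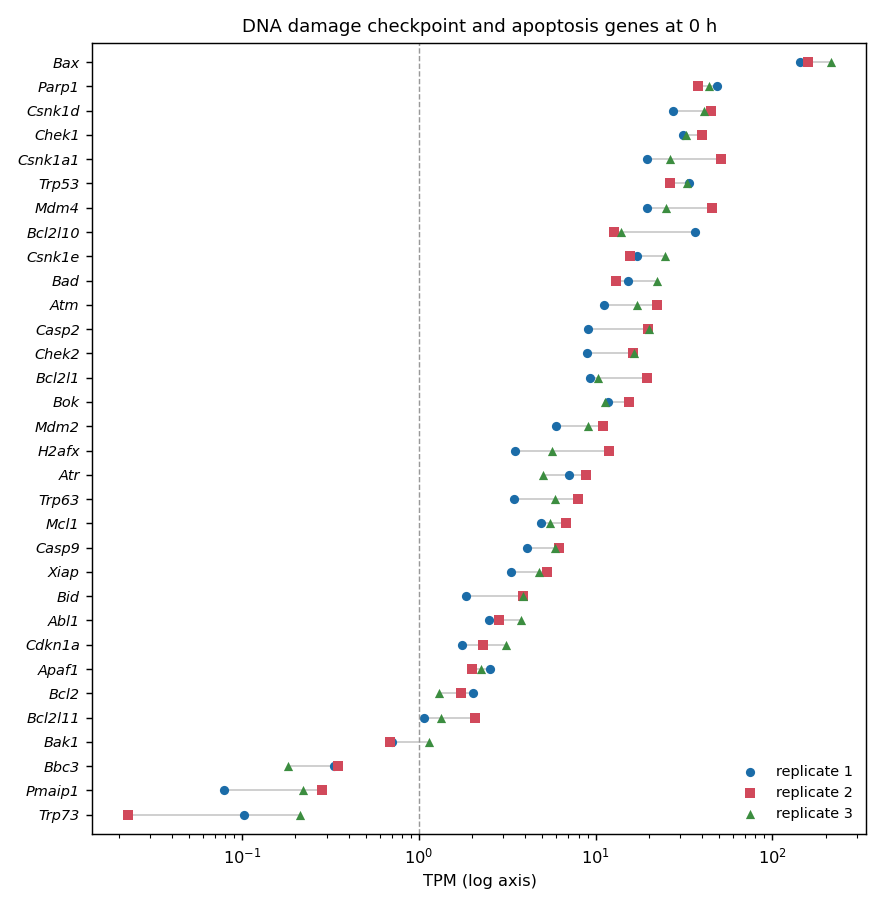
TPM (log axis) of the 16 checkpoint genes and 16 of the 18 apoptosis genes in replicates 1, 2 and 3 (circles, squares and triangles), ordered by mean, with a grey line over the range and a dashed line at 1 TPM. Trp73, Pmaip1 and Bbc3 lie under 1 TPM in all 3 libraries, and Bak1 lies on either side of it.

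The starts of Trp63 were compared because the TA form is the one known from oocytes and the ΔN form, which lacks the first exons, is known from basal keratinocytes. Each group of transcripts has its own first coding exon. The first 42 coding bases of each, from GENCODE transcripts of GRCm38 on the plus strand with the start codon in capitals, lie at chr16:25684290-25684331 for the TA form and at chr16:25802060-25802101 for the ΔN form:
Trp63-202 (TA): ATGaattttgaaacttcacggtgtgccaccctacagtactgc
Trp63-201 (ΔN): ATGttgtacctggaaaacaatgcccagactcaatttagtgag
The 4 transcripts of the TA start held 0.941, 1.41 and 1.74 TPM and the 4 of the ΔN start 2.49, 6.58 and 4.14 TPM. The TA share was 27.4%, 17.6% and 29.6% of TPM and 29.2%, 19.3% and 28.2% of estimated reads, so salmon assigned the greater part to the ΔN start in each library. Reads were 30 bases long, and 23.6% of the 30-mers of the TA transcripts and 26.6% of those of the ΔN transcripts belong to 1 start alone, so most of the split is an estimate from shared sequence. The keratinocyte genes Krt5, Krt14, Krt1, Dsg3 and Ivl were all under 1 TPM, with 0.114 TPM for Krt14 in replicate 1 as the highest value, and only Krt10 was higher, at 9.66, 12.8 and 8.73 TPM. Of the single transcripts, the ΔN transcripts Trp63-205 and Trp63-201 were at 0.556, 3.36 and 2.02 TPM and 1.01, 2.27 and 1.08 TPM, and the TA transcript Trp63-202 at 0.566, 1.20 and 0.722 TPM.

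Transcripts of Kit differ by a short insert in the coding sequence of the extracellular part. Kit-201 carries 12 bases that Kit-204 lacks, and 39 further bases at the start of Kit-204 are the sole other difference. The spliced stretch is shown with the insert in capitals, from an exon end and the next exon start within chr5:75639123-75640516 on the plus strand of GRCm38:
Kit-201: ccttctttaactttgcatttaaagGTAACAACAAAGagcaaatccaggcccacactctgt
Kit-204: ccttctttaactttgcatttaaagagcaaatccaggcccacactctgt
Kit-201 was at 2.96, 11.2 and 11.02 TPM and Kit-204 at 3.82, 6.31 and 5.63 TPM. The form with the insert was thus the lower of the pair in replicate 1 and the higher in replicates 2 and 3. Further TPM went to retained-intron transcripts. Kit-208 held 38.3%, 4.49% and 5.64% of the TPM of the gene and Kit-202 24.7%, 32.4% and 37.3%.

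In the other genes whose isoforms were examined, the leading transcript by TPM was often not the coding one. Of 6632 protein-coding genes with a mean of 5 TPM or more, 31.3% had a transcript of another type as the one with the highest TPM and 12.5% as the one with the most estimated reads. Ybx2, the germ cell Y-box protein MSY2, held 90.2%, 92.02% and 90.3% of its TPM in the retained-intron transcript Ybx2-204. Dnmt1 held 3.91, 4.97 and 5.54 TPM in the coding transcript Dnmt1-201 and 4.22, 6.55 and 3.70 TPM in Dnmt1-202, a coding transcript that starts 6.91 kb upstream. The processed transcript Dnmt1-205 and the retained-intron transcript Dnmt1-204 held more, at 12.2, 19.1 and 16.6 TPM and 18.6, 9.75 and 5.73 TPM. Mdm2 held 65.4%, 61.2% and 46.0% of its TPM in Mdm2-209, a transcript annotated for nonsense-mediated decay. Mdm4-210, the longest coding transcript of Mdm4, held 41.5%, 29.7% and 29.6% of its TPM and 92.1%, 85.5% and 87.6% of its estimated reads. The coding transcript Trp53-201 held 15.6, 11.2 and 10.8 TPM and the processed transcript Trp53-204 held 9.22, 8.09 and 14.2 TPM, more than Trp53-201 in replicate 3. Of the nuclease Dicer, the long coding transcript Dicer1-201 held 1.67, 1.93 and 1.25 TPM and the shorter Dicer1-203 1.77, 5.29 and 2.38 TPM. The shorter thus had the higher TPM in each library, whereas the long one had more estimated reads in each, at 1606, 819 and 1347 against 215, 284 and 332. For Cpeb1, the 3 coding transcripts were lowest in replicate 1, with Cpeb1-203 at 8.17, 15.5 and 10.2 TPM, Cpeb1-201 at 2.50, 18.4 and 9.42 TPM and Cpeb1-209 at 0, 1.09 and 1.15 TPM. A short transcript of Cpeb1 without a coding sequence, Cpeb1-206, was at 0, 22.7 and 21.4 TPM and made up much of the gap.

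The highest TPM values in the deposited files belonged to very short transcripts. Transcripts under 300 nt held 64.6%, 60.8% and 64.8% of the TPM of the libraries but 2.30%, 1.64% and 2.27% of the estimated reads, because their median effective length, by which salmon divides, was 5 bases. Of the 25 genes with the highest mean TPM, 16 were pseudogenes, 4 were annotated as miRNA, 3 were protein-coding, 1 was a lincRNA and 1 a mitochondrial tRNA. The longest transcript of 23 of them was under 300 nt, and 19 shared more than 50% of their 30-mers with other genes. Of the 25, 1 was also among the 25 with the most estimated reads. Gm26377, annotated as a miRNA of 108 nt, was the first at 38419.9, 52498 and 25181 TPM. It lies at chr9:78478528-78478635 on the minus strand inside Eef1a1, of whose transcript Eef1a1-201 it is bases 1608 to 1715, after the coding sequence, so all of its 30-mers occur in this mRNA of an abundant elongation factor. The miRNA genes Gm23801, Gm25100 and Gm23400 were at 34490.3, 25052 and 23979, 21937, 17558 and 21549 and 13124, 11491 and 12822 TPM, and all their 30-mers occur in other genes as well, most of them in Klhl20 for the first and Zfp638 for the other 2. The mitochondrial gene mt-Atp8, with 204 nt, was at 33241, 46254 and 24819 TPM and the mitochondrial tRNA mt-Ts1 at 7611, 15139 and 17379.6 TPM. Actb was at 8999, 16668 and 26347 TPM, of which the 241-nt transcript Actb-209 held 93.3%, 95.4% and 96.2%. In transcripts of 300 nt or more, Actb was at 599, 773 and 988 TPM.

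The pseudogenes among the 25 were mostly copies of ribosomal protein mRNAs. Gm45660, Gm14303, Gm42845, Gm10443, Gm17241, Rpl38-ps2, Gm28911 and Gm28900 share their 30-mers chiefly with Rps19-ps6, Rps29, Rps7, Rps28, Rps27, Rpl38, Rpl8 and Rpl21. Gm12338 and Gm11966 share theirs with the respiratory genes Cox7c and Atp5j, Gm3788 with Tmsb10 and Gm3699 with another gene model. Gm12328, Gm37421 and Gm36964 share less, with 52.4%, 27.2% and 45.6% of their 30-mers in any other gene, and 41.1% of those of Gm12328 and 27.2% of those of Gm37421 occur in the polyubiquitin gene Ubb. Their mean TPM ran from 4843 for Gm28900 to 16150.1 for Gm12328. The 25 also held the ribosomal protein gene Rpl13a at 8866, 3702 and 5828 TPM and the lincRNA Gm43994 at 15556, 10709 and 9011 TPM. In Gm14303, for example, which is 171 bases long, 100% of the 30-mers also occur in Rps29. A read from Gm14303 cannot be told from one of Rps29. Gm14303 was at 19771, 12262 and 8445 TPM with 13796, 3863 and 6558 estimated reads.

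**Figure D4:**
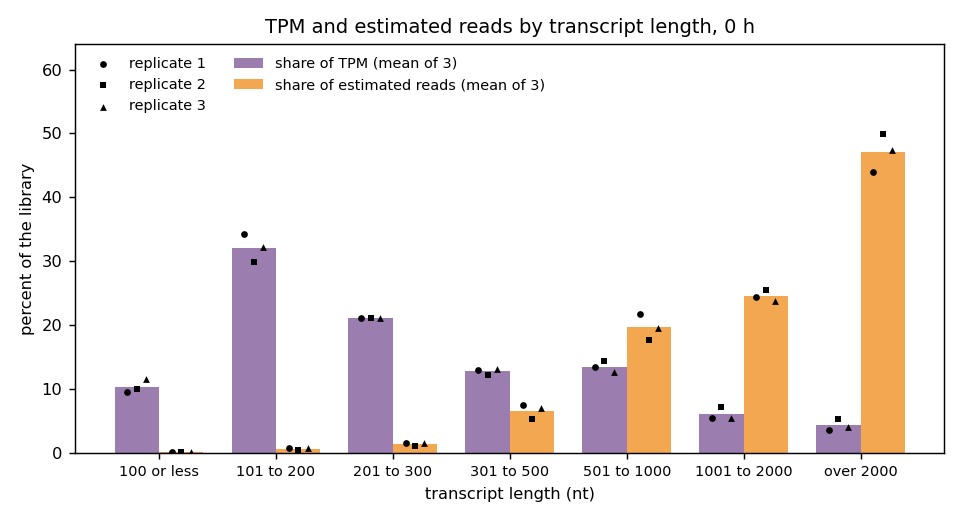
Share of TPM (purple) and of estimated reads (orange) held by transcripts of 7 length classes, in percent of each library, with bars for the mean of 3 libraries and circles, squares and triangles for replicates 1, 2 and 3. Classes up to 300 nt hold most of the TPM, and transcripts over 2000 nt hold 44.0%, 49.9% and 47.4% of the reads.

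In transcripts of 300 nt or more, the protein-coding genes with the highest mean level included mt-Co3, Gm8797, Eef1a1, Hbb-bs, Rps14, Rpl32, Rps19, mt-Cytb, Hspa8, Dppa3, Rpl41, Hddc3, Actg1 and mt-Co1. The cytochrome oxidase subunit mt-Co3, of whose 30-mers 99.9% occur also in other genes, chiefly Gm28437, was at 3315, 5944 and 2026 TPM, Eef1a1 at 1874, 2942 and 2381 TPM and the chaperone Hspa8 at 964, 1714 and 1465 TPM. Dppa3 is the 1 gene of this group best known from oocytes, beside genes of translation, respiration, the cytoskeleton and red blood cells. Gm8797 at 2830.1, 1975 and 2707 TPM shares 93.5% of its 30-mers with other genes, so its level is uncertain. Among the reference genes used in such work, Gapdh was the steadiest of those measured on TPM, at 187, 189 and 186 TPM, with Tbp at 12.1, 16.5 and 14.2 TPM and Ppia at 864, 855 and 567 TPM. On this scale 58.1% of protein-coding genes with a mean of 1 TPM or more were lowest in replicate 1. Equal TPM is thus not a level steady against the bulk of genes.

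Protein-coding genes held 36.1%, 43.1% and 40.3% of TPM and 84.2%, 85.3% and 86.3% of estimated reads. Genes annotated as miRNA held 16.5%, 16.6% and 15.5% of TPM and 0.240%, 0.186% and 0.219% of reads, and processed pseudogenes 35.1%, 26.9% and 31.6% of TPM and 6.09%, 3.78% and 4.84% of reads. The 2 scales thus differ most for the classes of short genes. Mitochondrially encoded genes held 5.16%, 7.25% and 4.11% of the estimated reads, with the highest share in replicate 2, and 36 of the 37 were detected in every library. Short tRNA genes among them passed 1 TPM on few reads, some at or under the floor of 3. For example, mt-Ts2 was at 6.69, 14.8 and 12.6 TPM with 2, 2 and 4 estimated reads. The 84 genes of cytosolic ribosomal proteins held 3.87%, 2.21% and 3.05% of the reads, with the highest share in replicate 1, and 83 were detected in every library. The 88 nuclear genes of the respiratory chain held 1.42%, 1.09% and 1.29% of the reads, and 1.70%, 1.69% and 1.73% of TPM. Of 82 histone genes, 18 were detected in every library, against 46.9% of all protein-coding genes. The variant genes H2afz and H3f3b were the highest at 1259, 986 and 822 TPM and 657, 718 and 664 TPM. Of the 30-mers of H2afz, 42.8% also occur in other genes, chiefly Tmcc1. H1foo, the linker histone of oocytes, picked after its values were seen, was at 198, 72.4 and 114 TPM and highest in replicate 1.

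Long non-coding genes held 3.68%, 3.003% and 3.91% of the estimated reads, and 638 of 9251 were detected in every library. The 10 with the highest mean TPM were Gm43994, Gm47551, Gm37724, Gm28960, Gm37350, AY036118, Malat1, Gm10076, Gm11261 and Gas5. Malat1, a nuclear RNA of most cells, was at 581, 1226 and 909.7 TPM and shared 2.45% of its 30-mers with other genes. Gas5, the host of several snoRNAs, was at 663, 631 and 590.4 TPM, and Snhg1, a host of the same kind, at 91.5, 98.2 and 54.9 TPM. The other 8 of the 10 shared more than 50% with other genes, so their levels are uncertain. AY036118, whose 30-mers all occur in another gene too, was listed at 0, 852 and 2327 TPM, and its reads cannot be told from those of that gene. Xist, the RNA that coats the inactive X chromosome, was at 7.78, 10.6 and 4.79 TPM, and H19 and Meg3, imprinted RNAs, were at 13.97, 17.4 and 16.8 and 13.4, 11.999 and 17.2 TPM. Tsix, antisense to Xist, was at 3.65, 0.298 and 2.54 TPM, and 34.5% of its 30-mers occur in Xist. Whether the counting used strand is not stated, so reads from that part cannot be told apart. Kcnq1ot1 was under 1 TPM in every library at 0.709, 0.896 and 0.514 TPM, yet held 7612, 4301 and 6106 estimated reads owing to its length. Across protein-coding genes detected in every library, the median was 6.47, 9.0002 and 7.30 TPM for 369 genes of the X chromosome and 6.15, 8.96 and 8.01 TPM for 9868 autosomal genes. The ratio was 1.05, 1.00 and 0.912, or 0.989 ± 0.0714 (SD, n = 3).

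Few protein-coding genes gave no signal at all. In all 3 libraries, 1078 of 21885 (4.93%) had at most 3 estimated reads, and 547 of these had none. For a transcript of 1000 nt, 3 reads correspond to 0.0439, 0.102 and 0.0374 TPM. Olfactory receptor genes had a median of 0.0372, 0.0510 and 0.0749 TPM and 936, 830 and 1080 of 1135 had more than 3 reads, most in replicate 3. Low read numbers were thus found over many genes known from another tissue, and 9 olfactory receptor genes reached 1 TPM in every library. Among them were Olfr1033 at 24.1, 34.9 and 62.7 TPM and Olfr624 at 20.8, 14.9 and 10.7 TPM, the latter with 13802, 4382 and 7759 estimated reads. Of the 30-mers of the lincRNA Gm43042, 32.3% also occur in Olfr624, so reads from that part cannot be told apart. Vomeronasal receptor genes lacked reads more often, with 65 of 323 (20.1%) at 3 or fewer in every library, as did keratin-associated protein genes with 27 of 57 (47.4%) and interferon alpha and beta genes with 7 of 14 (50%). By contrast, 1 of 49 keratin genes (2.04%), 0 of 38 taste receptor genes and 0 of 39 Hox genes had 3 or fewer in every library. Of 151 protein-coding genes annotated on the Y chromosome, 125 (82.8%) had at most 3 reads. Of 39 Hox genes, which pattern the body axis, 4 were detected in every library, against 46.9% of all protein-coding genes. They were Hoxd8 at 3.78, 4.05 and 3.56, Hoxb13 at 1.96, 3.90 and 1.02, Hoxc8 at 1.53, 2.26 and 1.53 and Hoxc6 at 1.35, 1.24 and 1.37 TPM. These classes were picked with the values of the files known.

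The libraries resembled each other across genes. Over 49585 genes, Pearson's r of log2(TPM + 1) was 0.925, 0.922 and 0.920 for replicates 1 and 2, 1 and 3, and 2 and 3, and Spearman's rho was 0.756, 0.739 and 0.731. Genes are not independent replicates, so these values describe the pairs only. For transcripts of 300 nt or more, r was 0.966, 0.971 and 0.973. Over 6632 protein-coding genes with a mean of 5 TPM or more, the median coefficient of variation was 27.6%, against 2.80% from counting error alone. In 60 genes, or 0.905%, the spread was within counting error.

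Against the mean of the other 2, on TPM plus 0.1, replicate 1 differed by more than 4-fold in 119 of these genes (1.79%), with 9 higher (0.136%) and 110 lower (1.66%). Replicate 2 differed in 55 genes (0.829%), with 28 higher (0.422%) and 27 lower (0.407%). Replicate 3 differed in 60 genes (0.905%), with 25 higher (0.377%) and 35 lower (0.528%). The median log2 ratio of replicate 1 was -0.41 on TPM and 0.08 on CPM with TMM, and on the latter it had 17 higher and 30 lower. On CPM with TMM, replicate 2 had 18 higher and 24 lower, and replicate 3 had 9 higher and 29 lower. The 5 genes that stood highest in replicate 2 were Chil3, Ngp, Stfa1, Gm5483 and S100a8, of which Chil3, Ngp and S100a8 are known from myeloid cells. Chil3, a chitinase-like protein, was at 0.00604, 132 and 0.164 TPM, with 1, 509 and 11 estimated reads. Its log2 ratio in replicate 2 to the mean of the other 2 was 9.48 over all transcripts and 6.45 in transcripts of 300 nt or more. Ngp, a granule protein of neutrophils, was at 0.375, 65.6 and 0.386 TPM. S100a8, a calprotectin subunit, was at 1.20, 184 and 4.53 TPM.

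All 8 members of the granulocyte list were the highest in replicate 2, against 53.0% of protein-coding genes with a mean of 1 TPM or more, or 37.5% on CPM with TMM, and they summed to 8.93, 558 and 10.5 TPM. This list, like the others, was chosen with earlier results of these data known, so the count is a description and not a test. The lowest mean of a member was 0.811 TPM, so not all members meet the mean of 1 TPM set for the genes beside them. The calprotectin partner S100a9 was at 0.802, 65.9 and 2.02 TPM, the cathelicidin gene Camp at 0.159, 24.6 and 0.439 TPM and Ltf, lactoferrin, at 5.81, 203 and 2.43 TPM. Lcn2, a siderophore-binding protein of neutrophil granules, was at 0.394, 9.73 and 0.587 TPM. The azurophil granule genes Mpo and Elane were at 0.200, 2.49 and 0.0871 and 0, 2.42 and 0.0147 TPM, with 23, 76 and 9 and 0, 61 and 1 estimated reads. The members were thus at 5.81 TPM or less in replicates 1 and 3 and at 2.42 TPM or more in replicate 2. Their part in the other differences of replicate 2 was not tested. Of the red cell list 5 of 7 members, and of the macrophage list 8 of 9, had their highest TPM there as well, and on CPM with TMM 4 of 7 and 6 of 9 had.

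**Figure D5:**
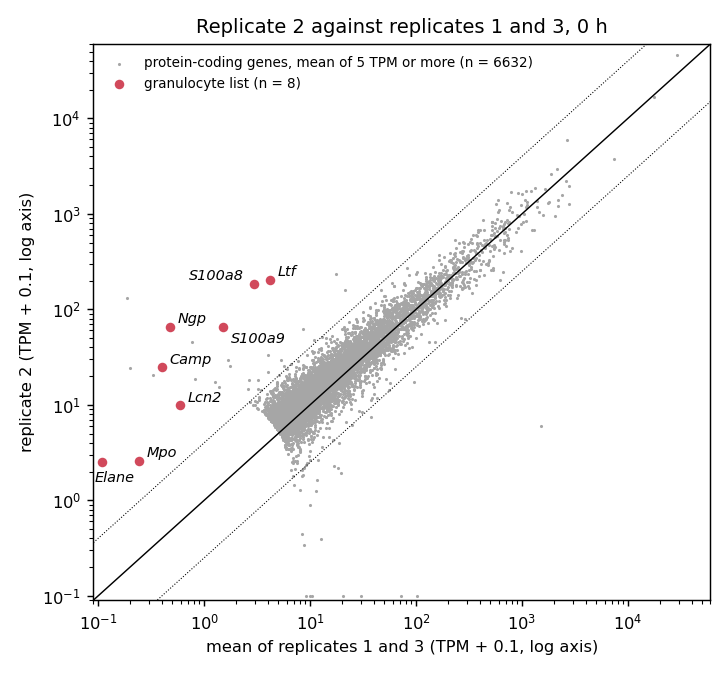
Level in replicate 2 against the mean of replicates 1 and 3 (TPM plus 0.1, log axes) for 6632 protein-coding genes with a mean of 5 TPM or more in grey and the 8 granulocyte genes, whatever their mean, in red. The solid line marks equal levels and the dotted lines 4-fold differences, and all 8 granulocyte genes lie above the upper dotted line.

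Replicate 1 stood highest against the others in Ccl21a at 16.2, 0.340 and 0.404 TPM, Hist1h4f at 16.6, 1.71 and 0 TPM, Gdpd3 at 14.8, 1.19 and 0.885 TPM and Gm813 at 33.9, 3.86 and 3.56 TPM. Ccl21a, a chemokine of lymphatic and stromal cells, appears as 2 genes of this symbol in the annotation, and both were among the 5. Of the 30-mers of the Ccl21a gene on chromosome 4, 81.1% also occur in Gm21541. The lowest genes of replicate 1 were Gm17387, Chil3, Hist1h2ap, Gm5483 and Rps12-ps3, of which Hist1h2ap at 5e-06, 11.9 and 15.7 TPM and Rps12-ps3 at 0, 0 and 20.6 TPM share most of their sequence with other genes. Replicate 3 stood highest in Gm17387, Cisd3, Rps12-ps3, Gm11060 and Gm11034. Of these Cisd3, an iron-sulfur protein, was at 16.1, 5.93 and 3021 TPM, with 184, 80 and 1824 estimated reads. Its log2 ratio in replicate 3 to the mean of the other 2 was 8.09 over all transcripts and -0.45 in transcripts of 300 nt or more. Gm17387, Gm11060 and Gm11034 are models of 90 nt or less with at most 89 estimated reads. Replicate 2 stood lowest in Gm11034, Gm17387, Gm10217, Cisd3 and Gm11099, which apart from Cisd3 are models of 135 nt or less. Replicate 3 stood lowest in Chil3, Stfa1, Arhgap15, Hist1h4f and Ccdc184. Arhgap15, a GTPase-activating protein, was at 41.6, 158 and 0.756 TPM with 11016, 18581 and 275 estimated reads, and Ccdc184 at 6.22, 18.0 and 0.0758 TPM, so both were low in replicate 3 and well read in the other 2.

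Immediate early genes, which rise within minutes of handling or stress, were moderate. Of 12, 9 were detected in every library, with Fos at 14.3, 16.8 and 3.97 TPM, Ier2 at 9.73, 17.5 and 7.78 TPM, Egr1 at 17.8, 10.4 and 4.49 TPM and Btg2 at 7.12, 13.9 and 6.85 TPM. Of the 12, 2 had their highest TPM in replicate 1, 7 in replicate 2 and 3 in replicate 3, where all protein-coding genes with a mean of 1 TPM or more had 16.4%, 53.0% and 30.6%. On CPM with TMM these numbers were 5, 6 and 1, against 40.6%, 37.5% and 21.9%. Fosb at 0.718, 0.568 and 0.241 TPM and Atf3 at 0.0585, 0.362 and 0.530 TPM stayed under 1 TPM in all libraries.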

How the data were processed

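RNA of 3 preparations of oocytes was amplified (PicoPure extraction, SMARTER kit) and sequenced as reads of 30 bases, which the labels and methods describe as paired and the series text as single. The authors quantified transcripts with salmon against Ensembl transcripts of mouse (GRCm38). The deposited files hold TPM and estimated counts of reads for 130740 transcripts, neither normalized between libraries. Nothing in the sources used here states whether strand was used.

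Gene levels are sums of transcript TPM and of estimated counts, joined by GENCODE names (Python 3.11.15, pandas 2.3.3, numpy 2.4.6). Transcripts without a match held 0.413%, 0.357% and 0.441% of the estimated reads and 3.32%, 2.58% and 3.21% of TPM and were left out. Detection was set at 1 TPM, the floor at 3 estimated reads, and ratios used TPM plus 0.1. CPM with TMM or RLE factors came from edgeR 4.0.16 (R 4.3.3) on rounded estimated counts. A 30-mer was called shared where it occurs in transcripts of more than 1 gene. The library comparison was tested on simulated data. The libraries form 1 group, so no test between groups was made and no p-value is given. Nothing says that they came from separate animals, so their spread may be technical. Counting limits cover counting error only, since amplified reads are not independent molecules.

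The members and the gene lists were chosen with earlier results of these data known. Named genes are the 25 of highest mean TPM, the 4 highest members of each list with every member under 1 TPM in all libraries, the oocyte, zona, checkpoint and apoptosis lists in full, the 5 most and least abundant genes of each library against the other 2, the highest protein-coding and long non-coding genes, and members with a known role that a sentence turns on, chosen after their values were seen. Some genes that this rule names are not reported here. Alternatives changed the detection level, depth, scale, pseudocount, fold and the libraries included, and transcripts of 300 nt or more were examined as an alternative added after seeing the data.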

Additional observations from a re-analysis of the deposited data

How the results depend on the processing

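No paired analysis was possible because the libraries form a single group. Of the alternatives for the main results, 79 stayed within the spread or within 1.5 times and 51 did not, and the latter follow, with causes not tested. Protein-coding genes detected in every library numbered 5401 at 5 TPM, 17620 at more than 3 estimated reads and 16717 after thinning to the smallest library. Of the 25 genes of highest mean TPM, 1 remained by CPM with TMM, 1 by CPM with RLE, 1 by estimated reads and 0 in transcripts of 300 nt or more. By estimated reads the mean share was 85.2% for protein-coding genes, 0.215% for miRNA, 4.90% for processed pseudogenes and 3.04% for cytosolic ribosomal proteins. In transcripts of 300 nt or more it was 75.6%, 2.1e-05%, 13.9% and 8.85% for these, 4.52% for long non-coding and 4.12% for mitochondrially encoded genes. At 5 TPM, 7 of 18 apoptosis genes were detected. Protein-coding genes with little or no signal in every library numbered 547 at 0 estimated reads and 3556 under 0.1 TPM. For replicates 1 and 2, 1 and 3, and 2 and 3, r was 0.880, 0.873 and 0.864 with a pseudocount of 0.1, 0.858, 0.859 and 0.841 over genes with a mean of 1 TPM or more, 0.976, 0.978 and 0.978 on CPM with TMM, 0.966, 0.971 and 0.973 in transcripts of 300 nt or more, and 0.964, 0.970 and 0.971 over protein-coding genes. On linear TPM it was 0.874 for 1 and 3 and 0.857 for 2 and 3. Genes apart from the mean of the other 2 in replicates 1, 2 and 3 numbered 1180, 652 and 351 at 2-fold, 43, 31 and 26 at 8-fold, and 296, 203 and 170 from a mean of 1 TPM. On CPM with TMM they numbered 47 in replicate 1 and 38 in replicate 3, on CPM with RLE 46 in replicate 1, and in transcripts of 300 nt or more 37 in replicate 3. The ratio of X to autosomal medians was 1.07 over genes at 5 TPM or more. Without replicate 2, the median of the granulocyte list was 0.435 TPM. Short transcripts, sequence shared between genes, reads of 30 bases and the number of 3 libraries limit single levels.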
